A study of Rattus norvegicus with 12 samples.

Results

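The genes described here encode subunits of calcineurin, the RCAN proteins that bind it, and subunits of the cAMP-dependent protein kinase PKA. They are Rcan1, Rcan2 and Rcan3, the calcineurin genes Ppp3ca, Ppp3cb and Ppp3r1, and the PKA genes Prkar1a, Prkar1b, Prkar2a and Prkaca. Every non-control probe named for 1 of these 10 genes was taken, which gave 15 of the 45598 probes and 10 of the 36181 genes and transcripts on the array. The group was put together with earlier results of these data known: Rcan3 and Prkar1b are included because they moved in the comparison of all 12 arrays. Their values in that comparison are therefore a description and support nothing. In 6 samples N27 cells, an immortalised rat line of dopaminergic neural cells, were kept with fipronil at 25 µM for 24 h, and 6 samples of N27 cells were left untreated as controls. Fipronil is an insecticide of the phenylpyrazole class, and it acts by blocking GABA-gated chloride channels. Total RNA was extracted with Trizol, labelled with Cy3 and hybridised to a single-colour Agilent rat expression array. The labels name no vehicle for the control cells and do not say whether the samples of a group were separate cultures, so p-values reflect only how these samples vary among themselves, in part perhaps technically.

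Calcineurin is a calcium- and calmodulin-dependent serine/threonine phosphatase built from a catalytic A subunit and a regulatory B subunit. It dephosphorylates NFAT transcription factors, which then enter the nucleus, and RCAN proteins bind the phosphatase and can inhibit it. PKA is a tetramer in which regulatory subunits hold catalytic subunits inactive until cAMP binds. In neurons both enzymes are held close together by anchoring proteins, and they act in opposite directions on many shared substrates.

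Each gene was read through 60-base probes, and the sequences of 3 of them are shown because the results turn on what these probes can and cannot report. The Rcan3 value rests on 1 spot of 1 probe, which the array files place at chr5:154209140-154209199 on the minus strand of the rat build rn4. The Prkar2a gene has a pair of probes at chr8:113805153-113805212 and chr8:113805180-113805239 on the plus strand of rn4. They share 33 bases, printed in capitals, so they are not separate readings of the transcript. The sequences run 5′ to 3′.
Rcan3: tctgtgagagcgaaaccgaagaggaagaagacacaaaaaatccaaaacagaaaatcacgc
Prkar2a, upstream probe: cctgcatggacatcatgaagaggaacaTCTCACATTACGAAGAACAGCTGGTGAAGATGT
Prkar2a, downstream probe: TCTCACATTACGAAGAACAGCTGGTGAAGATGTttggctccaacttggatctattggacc
The Prkar1b probe, at chr12:16131001-16131060 on the plus strand of rn4, is printed on 10 spots of every array. Which exon or untranslated region a probe lies in was not annotated in the sources used here.

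The 12 arrays lie on 3 slides, and slide and treatment nearly coincide. Slide 1 holds fipronil replicates 7 and 8 and control replicates 2 and 3, slide 3 holds the other 4 fipronil arrays, and slide 2 the other 4 control arrays. The arrays differed in brightness: the 75th percentile of the processed signal was 111 to 140 on slide 3 (fipronil), 245 to 279 on slide 1 (both treatments) and 379 to 472 on slide 2 (control). Values below are log2 signals relative to that percentile of the same array, and a difference is always fipronil minus control on this scale. A gene was tested when at least 6 of the 12 arrays had a probe of it marked as well above background, which held for 13542 genes, and "past the threshold" means an adjusted p under 0.05 in limma. Of the dopaminergic neuron markers, Th stood well above background on 12 arrays and Aldh1a1 on 8, whereas Slc6a3, Ddc, Pitx3, Foxa2, En1 and Drd2 did so on 0. Of the markers of other cell types, 0 of 6 astrocyte, 1 of 6 oligodendrocyte, 2 of 6 microglia and leukocyte, 1 of 6 fibroblast and 1 of 5 endothelial markers were tested. Among these, the fibroblast collagen gene Col1a1 was past the threshold (mean log2 level -1.51 in fipronil and -2.49 in control arrays, adjusted p = 0.0375) with a slide 1 difference of 0.09. Its scaled level, not logged, was 0.211 to 0.469 in fipronil arrays and 0.105 to 0.216 in control arrays. Of the other fibroblast markers, Col1a2 was well above background on 5 arrays and Col3a1, Dcn, Lum and Pdgfra on 0. The part of Col1a1 in any result below was not tested.

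Of the 15 probes, 11 passed the filter, and 8 of the 10 genes were tested. Rcan3 was higher and Prkar1b lower in fipronil cells, each by about the same factor, and the other 6 tested genes did not pass the threshold. Across all genes tested, 5.01% were past the threshold, 2.24% as higher and 2.77% as lower. Groups that did not overlap were found for 4.18% of genes tested and, among these members, for Rcan3 and Prkar1b. Since these genes were chosen on this contrast, nothing is read from their share. The tested members nearest the threshold on the other side were Prkaca, with an adjusted p of 0.21, and Rcan1, with 0.222. The plot of all tested members by array shows each value behind these counts.

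**Figure D1:**
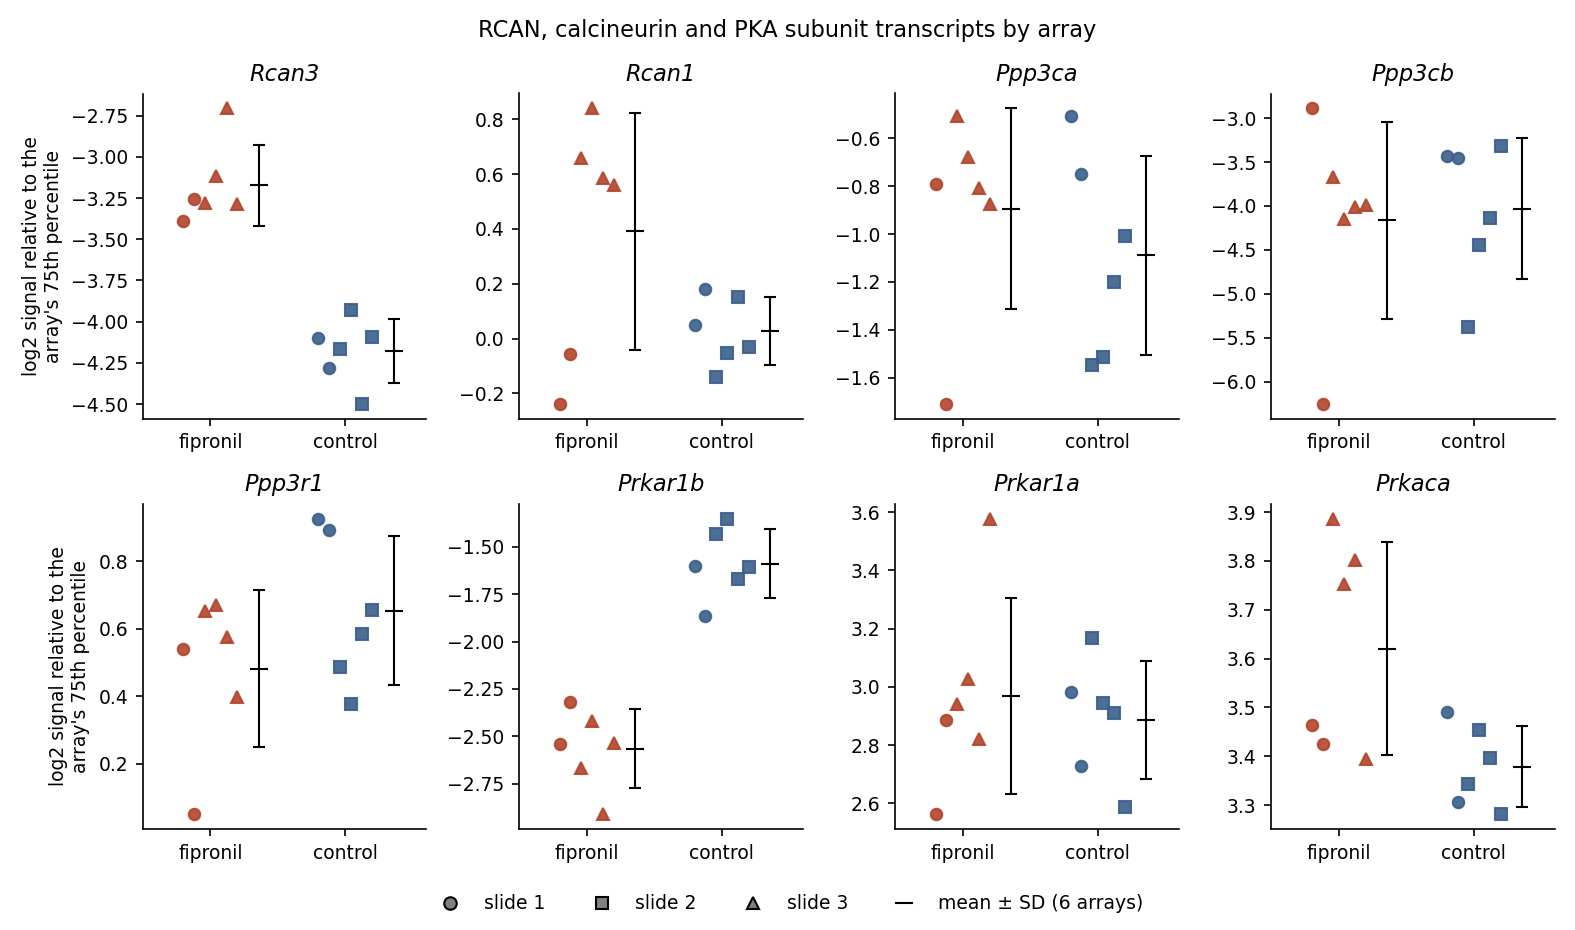
Log2 signal relative to the 75th percentile of the same array (vertical axis) for the 8 tested genes, with fipronil arrays at the left and control arrays at the right of each panel. Points are arrays, with the slide as marker shape, and bars give the mean ± SD of 6 arrays. Only Rcan3 and Prkar1b have groups that do not overlap, and in Rcan1 the fipronil arrays of slide 3 stand above the other 8 arrays.

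Rcan3, a member of the RCAN family, had log2 levels of -3.39, -3.27 and -2.71 (lowest, median and highest) in fipronil arrays, against -4.50, -4.13 and -3.93 in control arrays. Every fipronil array was above every control array. The difference was 1.01 ± 0.14 (SE, 6 arrays per group), or 2.01-fold, with a 95% interval of 0.71 to 1.30 and an adjusted p of 0.00551 in limma. It was 0.87 on slide 1, where the levels were -3.39 and -3.26 in the fipronil arrays and -4.28 and -4.10 in the control arrays. Between the 4 fipronil arrays of slide 3 and the 4 control arrays of slide 2 it was 1.07. The direction was the same in both comparisons, as it was on slide 1 for 98.1% of all genes past the threshold over the 12 arrays. The test of the difference between the comparisons did not pass the threshold (-0.21 ± 0.28, adjusted p = 0.634).

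The Rcan3 probe is dim, and over all 12 arrays its groups separate only after scaling. Its processed signal, before scaling, was 11.7, 17.8 and 25.6 intensity units (lowest, median, highest) in fipronil arrays and 13.9, 21.0 and 30.7 in control arrays. Unscaled, the groups therefore overlap, with the lowest value on a slide 3 fipronil array and the highest on a slide 2 control array. On slide 1, where brightness was alike, the unscaled signals were 23.5 and 25.6 with fipronil and 13.9 and 16.3 in controls, and these do not overlap. The Rcan3 signal was 1.11 to 1.96 times the lowest signal called well above background on the same array in fipronil arrays, and 1.16 to 2.25 times in control arrays.

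Rcan2, another RCAN gene, and Prkar2a, a type II regulatory subunit of PKA, were well above background on 0 of 12 arrays, as were 53.3% of all non-control probes, and neither was tested. These probes too read differently before and after scaling. Rcan2 had log2 levels of -6.34, -5.72 and -5.36 in fipronil arrays, against -7.13, -6.64 and -6.43 in control arrays, while its unscaled signal was 2.35 to 3.19 in fipronil arrays and 2.90 to 4.96 in control arrays. On the scaled values every fipronil array of this probe was above every control array, while unscaled the groups overlap. The scaled difference of Rcan2 was 0.90 over all 12 arrays and 0.19 on slide 1.

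The overlapping Prkar2a probes behaved likewise. The upstream one differed by 0.79 over all 12 arrays and by -0.11 on slide 1, and the downstream one by 0.93 and 0.08. With no filter on dim probes the median difference of all 36181 genes was 0.55, against -0.08 over the 13542 genes tested and -0.02 for the same genes on slide 1. In that unfiltered fit 45.1% of all genes passed the threshold. Rcan2 passed it (adjusted p = 0.0037 in limma) and Prkar2a did not (0.112). These probes were not well above background in either group, so their values are not read as transcript levels. The part of scaling in their differences was not tested.

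**Figure D2:**
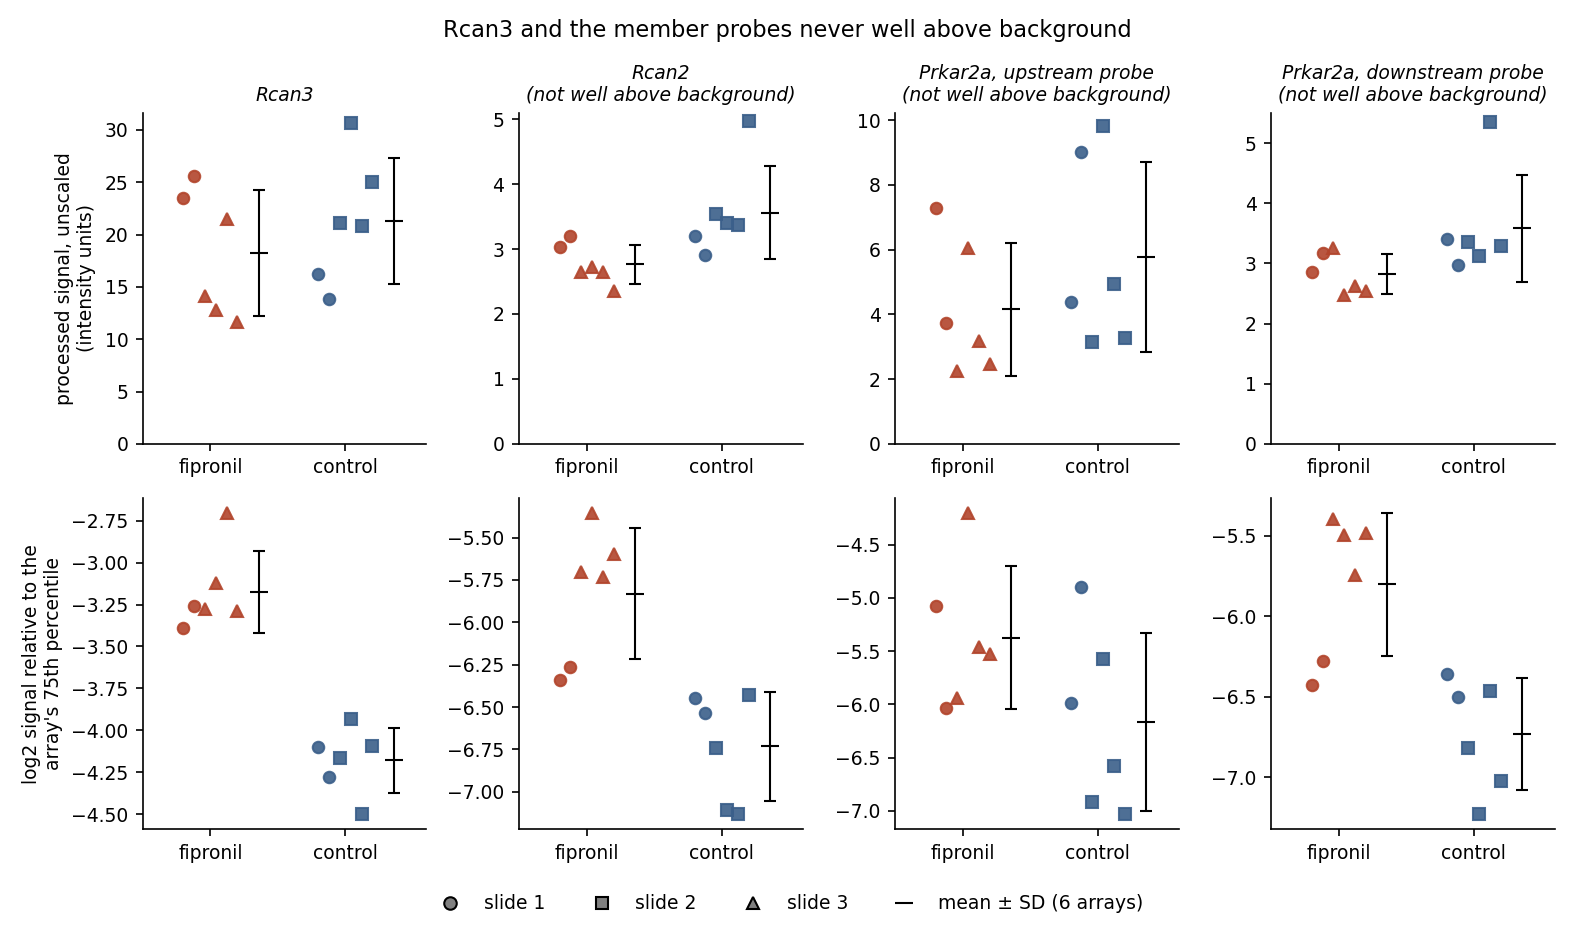
Processed signal before scaling (top, intensity units) and log2 signal relative to the array's 75th percentile (bottom) for Rcan3, Rcan2 and both Prkar2a probes, fipronil left and control right. Points are arrays by slide and bars give the mean ± SD of 6 arrays. After scaling, the fipronil arrays of slide 3 rise above most control arrays in every panel, including the panels of probes that were well above background on 0 of 12 arrays.

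Prkar1b, the neuron-enriched type I regulatory subunit of PKA, had log2 levels of -2.91, -2.54 and -2.32 (lowest, median and highest) in fipronil arrays, against -1.87, -1.60 and -1.35 in control arrays. Every fipronil array was below every control array. The difference was -0.98 ± 0.13 (SE, 6 arrays per group), or 1.97-fold lower with fipronil, with a 95% interval of -1.25 to -0.70 and an adjusted p of 0.00551 in limma. Unscaled signals were 18.7, 21.2 and 49.2 in fipronil arrays and 75.7, 140 and 183 in control arrays. The arrays of slide 3 are the dimmest by their 75th percentile, and the unscaled signals of Rcan1, Ppp3r1 and the second Prkar1a probe, none past the threshold, do not overlap either. In bulk RNA, fewer expressing cells and less transcript per cell cannot be told apart.

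Slide 1 alone gave the same order for Prkar1b. There the log2 levels were -2.54 and -2.32 in the fipronil arrays and -1.87 and -1.60 in the control arrays, a difference of -0.69. Between slides 3 and 2 the difference was -1.12, and the test of one against the other did not pass the threshold (0.42 ± 0.24, adjusted p = 0.246 in limma). Of 11 dopaminergic neuron markers 2 were tested, and their summed scaled level was 0.249 to 0.543 in fipronil arrays and 0.389 to 0.575 in control arrays. Th differed by -0.48 (adjusted p = 0.152) and by 0.10 on slide 1, and Aldh1a1 by -0.84 (adjusted p = 0.0678) and by -0.98 on slide 1. Their part in the Prkar1b result was not tested.

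The replicate spots allow the technical error within an array to be set beside the spread between arrays for Prkar1b. The SD over its 9 to 10 usable spots had a median of 0.22 per array, with a range of 0.10 to 0.50, and the highest standard error of an array's mean was 0.16. The SD between arrays was 0.21 in the fipronil group and 0.18 in the control group. Spots spread most on the dim fipronil arrays of slide 3, as the plot of single spots shows.

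**Figure D3:**
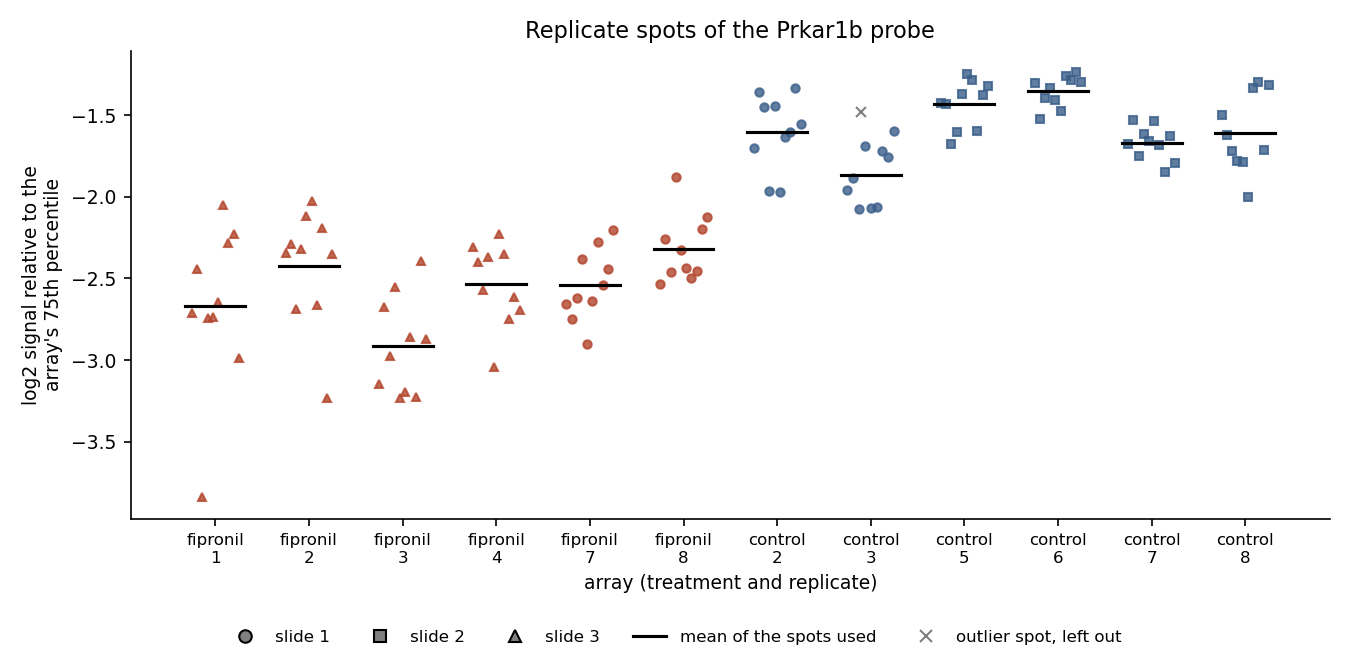
Log2 signal of each Prkar1b spot relative to the array's 75th percentile (vertical axis) for the 6 fipronil arrays at the left and the 6 control arrays at the right. Marker shape gives the slide, horizontal bars the mean of the 9 to 10 spots used, and crosses a spot left out as an outlier. The array means of the fipronil group lie between -2.91 and -2.32, all below those of the control group.

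The other PKA subunits tested did not pass the threshold. Prkar1a, the widely expressed type I regulatory subunit, had log2 levels of 2.56, 2.91 and 3.58 in fipronil arrays and 2.59, 2.93 and 3.17 in control arrays, and the groups overlap. Its difference was 0.08 ± 0.16 with a 95% interval of -0.26 to 0.43 (adjusted p = 0.789 in limma). The probe used for Prkar1a is placed on rn4 chromosome X, while RefSeq's GRCr8 annotation has the gene on chromosome 10, so what this probe reports is uncertain. The other Prkar1a probe, placed on rn4 chromosome 10, differed by -0.06 over all arrays (adjusted p = 0.837) and by -0.47 on slide 1.

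Prkaca, the main catalytic subunit, had log2 levels of 3.39, 3.61 and 3.89 in fipronil arrays and 3.28, 3.37 and 3.49 in control arrays. The groups overlap, with 3 fipronil arrays of slide 3 above all controls. Its difference was 0.24 ± 0.12, with an interval of -0.01 to 0.49 (adjusted p = 0.21 in limma), and 0.05 on slide 1. The ratio of Prkar1b to another PKA transcript on the same array does not depend on the scaling. It can depend on the background correction. With the Prkar1a probe placed on chromosome X, Prkar1b over Prkar1a was -6.11 to -5.10 in fipronil and -4.60 to -4.20 in control arrays (log2). These groups do not overlap, but with the Prkar1a probe placed on chromosome 10 they do. Fipronil replicate 8 had -2.32 for Prkar1b and 1.18 for that probe, and control replicate 2 had -1.60 and 2.04. The absence of overlap thus depends on the probe whose target is uncertain. The mean of the ratio with the chromosome X probe differed by -1.06 over all arrays and by -0.56 on slide 1. Prkar1b over Prkaca likewise differed by -1.22 and by -0.74, with no overlap. With a normexp background and the same scaling, Prkar1b differed by -0.11, Prkar1a by -0.07 and Prkaca by -0.01. These lie close together, so little of the ratio differences remained in that setting. The normexp background as used adds an offset of 50 intensity units to every signal. The unscaled Prkar1b signals were 18.7 to 49.2 in fipronil arrays. The part of the offset was not tested. With that background and quantile normalization the 3 genes differed by -0.49, 0.20 and 0.24. Prkar1b was chosen for its difference on these arrays, so the ratios are a description.

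Among the calcineurin regulators, Rcan1, which is known as a target of NFAT and of cellular stress, had log2 levels of -0.24, 0.57 and 0.84 in fipronil arrays and -0.14, 0.01 and 0.18 in control arrays. The groups overlap, and the overlap follows the slides. The 4 fipronil arrays of slide 3 lay at 0.56 to 0.84, above all other arrays, whereas the fipronil arrays of slide 1 lay at -0.24 and -0.06, below the control arrays of slide 1 at 0.05 and 0.18. The difference over all arrays was 0.37 ± 0.18, with an interval of -0.02 to 0.75 (adjusted p = 0.222 in limma). It was -0.26 on slide 1 and 0.68 between slides 3 and 2. These differ by -0.94 ± 0.20 (adjusted p = 0.0244 in limma), a test that 9.14% of genes passed and Rcan1 alone of the 8 members. The second of these differences is between slides as well as between treatments, and these cannot be told apart.

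On the same array, Rcan3 over Rcan1 was higher in fipronil arrays by 0.64 over all arrays and by 1.13 on slide 1, although the groups overlap. The ratio of Rcan3 to Ppp3r1 was higher by 1.18, with a range of -3.93 to -3.28 in fipronil arrays and -5.17 to -4.31 in control arrays, which do not overlap. Its ratio to Ppp3ca was higher by 0.81 with overlapping groups. Rcan3 was chosen for its difference and its probe is dim, so these ratios are a description.

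The calcineurin subunits themselves did not pass the threshold. Ppp3ca, the alpha form of the catalytic subunit and the main one in brain, had log2 levels of -1.71, -0.80 and -0.51 in fipronil arrays and -1.55, -1.11 and -0.51 in control arrays, which overlap almost fully. Its difference was 0.19 ± 0.22, with an interval of -0.29 to 0.68 (adjusted p = 0.621 in limma). The other 2 probes of Ppp3ca differed by -0.01 and 0.39 and did not pass either. Slide 1 gave -0.62 and slides 3 and 2 gave 0.60 for the probe used, and the test of one against the other missed the threshold (adjusted p = 0.052).

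Ppp3r1, the regulatory B subunit, had log2 levels of 0.05, 0.56 and 0.67 in fipronil arrays and 0.38, 0.62 and 0.93 in control arrays. The groups overlap. Its difference was -0.17 ± 0.14, with an interval of -0.47 to 0.13 (adjusted p = 0.46 in limma), and -0.61 on slide 1. A dimmer Ppp3r1 probe stood well above background on 1 fipronil and 3 control arrays and failed the filter.

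Ppp3cb, the beta form of the catalytic subunit, was well above background on 1 of 6 fipronil and 5 of 6 control arrays and so passed the filter mainly through the controls. Its levels were -6.25, -4.00 and -2.89 in fipronil arrays and -5.38, -3.80 and -3.32 in control arrays. The groups overlap, and the difference of -0.13 ± 0.49, with an interval of -1.19 to 0.93, is the least precise of the 8 (adjusted p = 0.892 in limma).

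On slide 1, fipronil replicate 8 was the lowest array for all 3 calcineurin genes. It had -1.71 for Ppp3ca, against -0.79 in fipronil replicate 7 and -0.75 and -0.51 in the slide 1 controls. For Ppp3r1 it had 0.05, against 0.54 in fipronil replicate 7 and 0.89 and 0.93 in those controls. Replicate 7 also lay below both of those controls for Ppp3r1 and, by little, for this Ppp3ca probe. For Ppp3cb it lay above them, at -2.89 against -3.46 and -3.44. Of the other Ppp3ca probes, 1 had it above them (-2.33 against -3.18 and -2.45) and 1 below (-2.40 against -2.08 and -1.67). The Ppp3cb probe was not well above background in fipronil replicate 8 and was so in the other 3 arrays of slide 1.

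**Figure D4:**
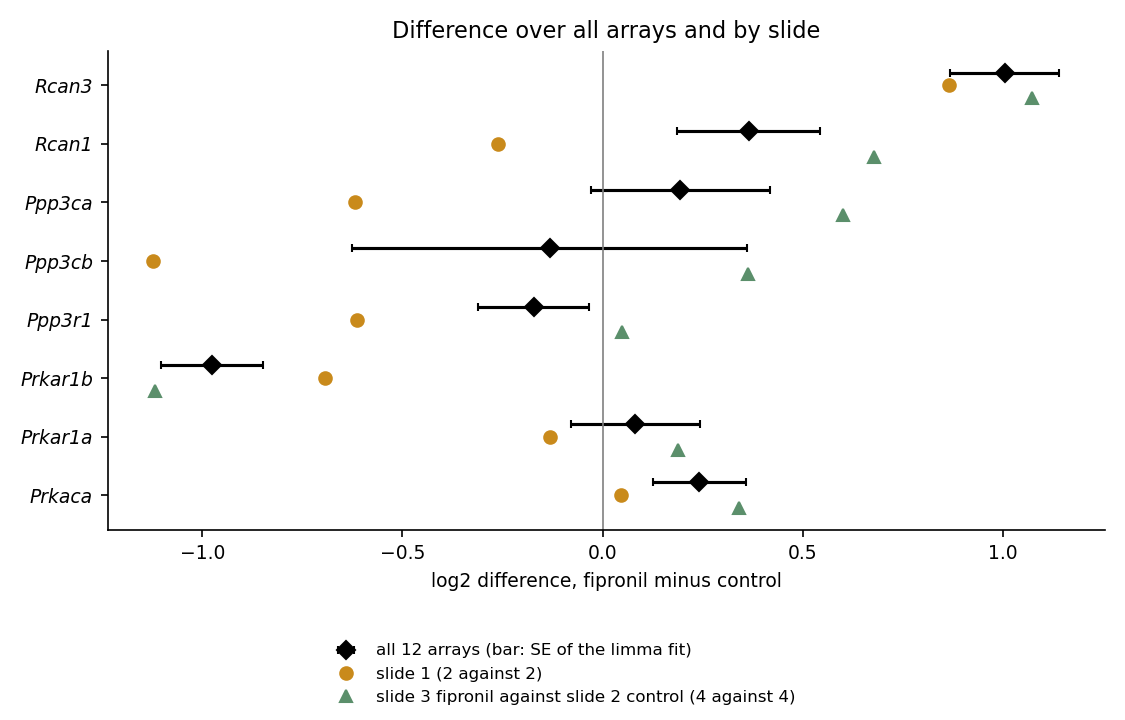
Log2 difference, fipronil minus control, of the 8 tested genes (horizontal axis) over all 12 arrays (diamonds, bars give the SE of the limma fit), on slide 1 (circles, 2 arrays against 2) and between slide 3 fipronil and slide 2 control arrays (triangles, 4 against 4). Rcan3, Prkar1b and Prkaca keep their sign in all 3, while Rcan1, Ppp3ca, Ppp3cb, Ppp3r1 and Prkar1a lie on opposite sides of 0 on slide 1 and between slides 3 and 2.

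Over the 8 tested members the median difference was 0.14, beside -0.08 over all genes tested. On slide 1 it was -0.44, beside -0.02 over all genes. The direction on slide 1 was that of all 12 arrays for 5 of the 8 members, and for 58.7% of all genes tested.

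In the 12 fits that left out 1 array, each of which reuses 11 of the arrays on which both genes were chosen, the difference ranged from 0.91 to 1.05 for Rcan3 and from -1.03 to -0.91 for Prkar1b. When slide entered as a fixed block, so that slide 1 alone supplied the difference, it was 0.87 for Rcan3 (adjusted p = 0.12) and -0.69 for Prkar1b (adjusted p = 0.129), and neither passed in limma. Only 12 of 13542 genes (0.0886%) passed that fit. With slide as a random block, on the same arrays on which both genes were chosen, 21 genes (0.155%) passed in limma. Both were among them, each with an adjusted p of 0.0453. A normexp background followed by the same scaling gave 0.85 for Rcan3 (adjusted p = 0.000736) and -0.11 for Prkar1b (adjusted p = 0.366), in a fit where 6776 of 13542 genes passed. The same background followed by quantile normalization, where 7.47% passed, gave 0.23 for Rcan3 (adjusted p = 0.0309) and -0.49 for Prkar1b (adjusted p = 0.00545). Both normexp settings add 50 intensity units to every signal, and the unscaled Rcan3 signals were 11.7 to 25.6 in fipronil and 13.9 to 30.7 in control arrays. The part of this offset was not tested.

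**Figure D5:**
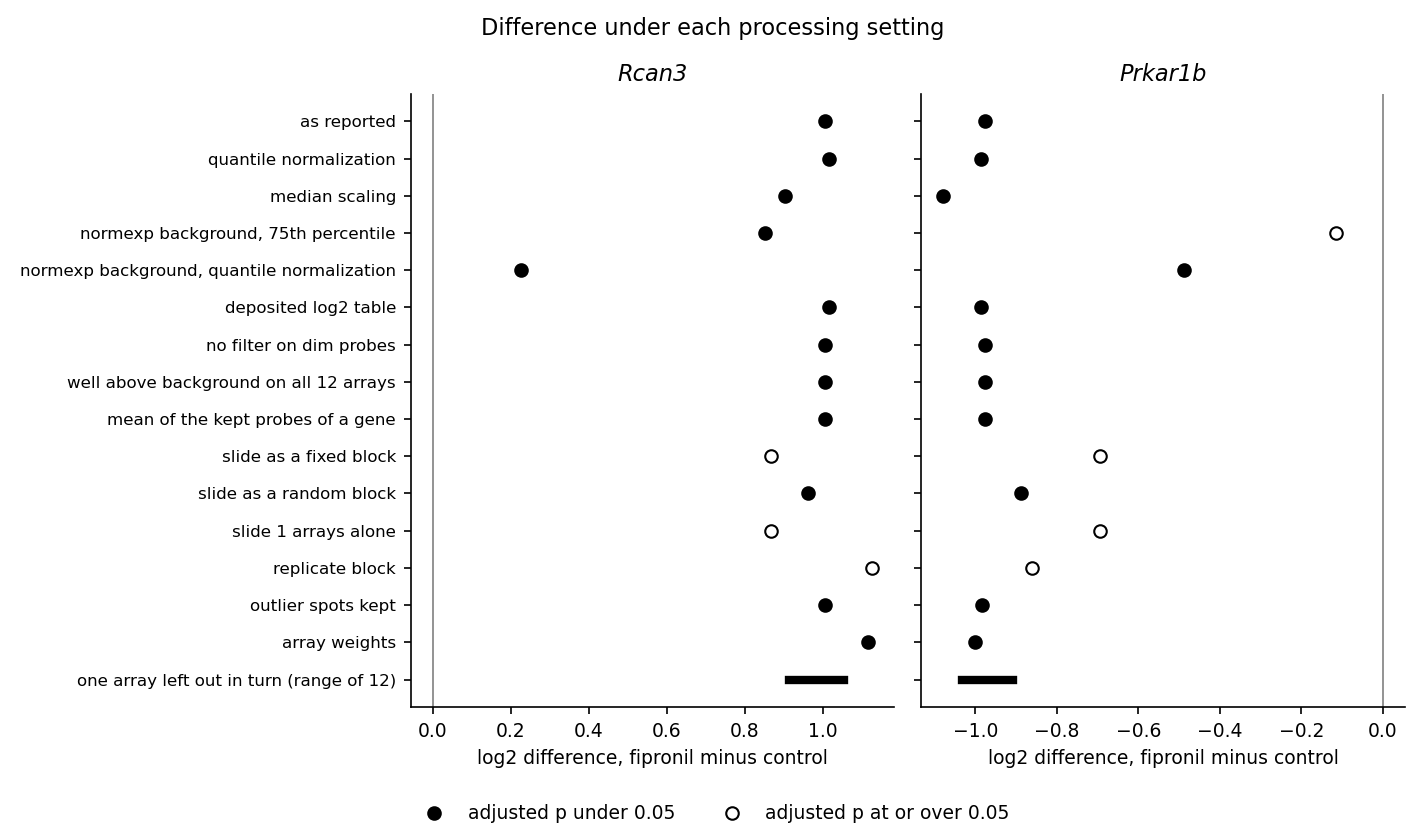
Log2 difference, fipronil minus control, of Rcan3 (left) and Prkar1b (right) under each processing setting (rows). Filled points have an adjusted p under 0.05, open points do not, and the thick bar spans the 12 fits that left out 1 array. The sign is the same in every row, and the smallest differences are 0.23 for Rcan3, with normexp and quantile normalization, and -0.11 for Prkar1b, with normexp and 75th percentile scaling.

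Genes around these enzymes were read from 7 lists, which hold 95 genes, 94 of them on the array. Of the 62 tested, 1 was past the threshold as higher and 1 as lower, beside 5.01% of all genes in either direction, and the median difference was -0.01. Calm2, which encodes the calcium sensor calmodulin that activates calcineurin, fell. Its log2 levels were 1.29, 1.49 and 2.02 in fipronil arrays and 1.90, 2.19 and 2.40 in control arrays, with a difference of -0.59 ± 0.14 (adjusted p = 0.0327 in limma) and of -0.27 on slide 1. The groups overlap narrowly. It was the 1 of 10 tested calcineurin partners past the threshold.

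Gsk3b, a kinase that rephosphorylates NFAT and so opposes calcineurin, was the 1 of 11 tested calcineurin substrates and NFAT kinases past the threshold. Its levels were -0.62, -0.05 and 0.18 in fipronil arrays and -1.09, -1.003 and -0.43 in control arrays, with overlapping groups and a difference of 0.69 ± 0.17 (adjusted p = 0.0396 in limma). On slide 1 it was 0.05, and the other 4 Gsk3b probes differed by -0.27 to 0.05 with none past the threshold. The reading of Gsk3b thus depends on the probe. Neither Calm2 nor Gsk3b was past the threshold with slide as a block, or without any 1 of control replicates 5, 6 or 7 or fipronil replicates 1, 2, 3 or 4.

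Across all genes tested, 25.0% had an unadjusted p under 0.05. In the remaining lists 0 genes were past the threshold in limma, with 1 of 5 tested other PKA subunits and inhibitors, 2 of 8 A-kinase anchoring proteins, 2 of 14 genes of cAMP synthesis, breakdown and G proteins, 1 of 7 cAMP-responsive factors and effectors and 1 of 8 other phosphatases at an unadjusted p under 0.05. Atf1, a CREB family transcription factor, came nearest: 1.31, 1.79 and 1.84 in fipronil arrays and 1.89, 2.12 and 2.31 in control arrays. These groups do not overlap, and its difference was -0.43 ± 0.12 (adjusted p = 0.0596) and -0.59 on slide 1. The brightest members of these lists did not pass the threshold. The differences were 0.03 for the PKA inhibitor Pkig, 0.06 for the catalytic subunit Prkacb, -0.34 for the anchoring protein Akap8 and -0.15 for Akap1. They were -0.08 for the stimulatory G protein subunit Gnas, 0.21 for the inhibitory one Gnai2, -0.01 for the acetyltransferase Ep300, -0.29 for the phosphatase subunit Ppp1ca and 0.04 for Ppp1cc.

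The genes whose levels ran most like Rcan3 over the 12 arrays were Chst11 (Pearson r = 0.95), Rpl29 (0.94), Cplx2 (0.93), Bin1 (0.93) and Ppfia1 (0.93). After the mean of each slide and treatment was removed, r was 0.70 for Chst11, 0.63 for Rpl29, 0.48 for Cplx2, 0.76 for Bin1 and 0.58 for Ppfia1. Cplx2 had the difference nearest to that of Rcan3, at 0.98 over all arrays and 0.85 on slide 1. Among those most like Prkar1b were Atxn7l3b (r = 0.96), Slc38a2 (0.96), Pgam1 (0.95) and Trir (0.95), with 0.63, 0.81, 0.76 and 0.56 after that removal. Of these, the amino acid transporter Slc38a2 differed by -0.71 over all arrays and by -0.72 on slide 1. The arrays share treatment, slide and scaling, so these correlations describe the 12 arrays and carry no test.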

How the data were processed

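The submitters' processing notes name Agilent Feature Extraction 10.7 as the tool with which the authors quantified the arrays. The processed signal is an intensity that, per the file headers, was detrended and had background subtracted, without any scaling from array to array. Raw spot and background intensities, and software flags of 0 or 1, were also used as deposited. The deposited log2 table was quantile-normalized by the authors and served as an alternative.

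Signals were converted to log2 and each array's 75th percentile over non-control spots was subtracted. Outlier spots were dropped unless all spots of the probe on that array were marked, so a probe on a single spot always kept it. The spots of a probe were averaged. A probe was called well above background on an array where at least 0.5 of its spots were. The brightest kept probe stood for a gene. Arrays were compared with limma 3.58.1 in R 4.3.3 (lmFit, eBayes, two-sided), with Benjamini-Hochberg adjustment over all 13542 genes. The script was tested on simulated data. Alternatives were other scalings, backgrounds, filters, slide and replicate blocks, array weights and leaving out each array. The normexp background was used with an offset of 50 intensity units.

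The members and gene lists were chosen with earlier results of these data known. Named genes were all members, up to 4 genes per list past the threshold or otherwise its 2 brightest, and the 5 genes most correlated with Rcan3 and with Prkar1b, of which 1 is not reported here. Col1a1 and the dopaminergic markers come from the marker lists. Replicate numbers 2, 3, 7 and 8 occur in both groups, but the correlation of their deviations from the group means was 0.43, 0.08, -0.11 and -0.31, so the numbers were not used as pairs. The number of arrays limits the precision.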

Additional observations from a re-analysis of the deposited data

Results flagged for a closer look

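In Ppp3ca, fipronil replicate 8 stood apart from the other 5 fipronil arrays: its gap to the nearest of them was 0.693 of the group's whole range, above Dixon's 95% critical value for 6 values. Chance flags about 1 in 20 groups in this way. Without that array the fipronil levels of the Ppp3ca probe run from -0.88 to -0.51.

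The fipronil difference of Rcan1 on slide 1 was lower than that between slides 3 and 2 by 0.94 (difference of differences -0.94, adjusted p = 0.0244 in limma). It kept its sign in all 19 other settings tried for it and passed the threshold in 14 of them. It missed the threshold without control replicate 2, control replicate 3, control replicate 6 or fipronil replicate 8, with adjusted p values of 0.0912, 0.0813, 0.0568 and 0.0884, and with median scaling (-0.63, adjusted p = 0.104).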

How the results depend on the processing

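Rcan3 kept its sign in all 26 other settings and passed the threshold in 23, and Prkar1b kept its sign in 26 and passed in 22. Each setting reuses all or part of the arrays on which both genes were chosen. These counts therefore describe the processing and support nothing. Both missed it with slide as a fixed block, on slide 1 alone (0.87 and -0.69) and with the replicate block, and Prkar1b also with normexp and 75th percentile scaling. The replicate block uses 8 arrays and gave 1.13 for Rcan3 and -0.86 for Prkar1b, each with an adjusted p of 0.169. The count of members past the threshold was 0 with slide as a fixed block, on slide 1 alone and with the replicate block. In these fits 3, 3 and 2 of the 8 tested members had an unadjusted p under 0.05 in limma. Of all 13542 genes, 2578, 2140 and 2164 did so, and nothing is read from the member counts. With the normexp background and 75th percentile scaling Ppp3cb turned to 0.65 (adjusted p = 0.00533) and took the place of Prkar1b among the 2 members called. That setting adds 50 intensity units to every signal, and the unscaled Ppp3cb signals were 3.21 to 33.2 in fipronil and 9.11 to 42.8 in control arrays. Leaving out 1 array moved Ppp3cb between -0.40 and 0.29.

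The count of genes past the threshold was 678 and became 6776 with normexp and 75th percentile scaling, 16313 with no filter, 2219 with array weights, 21 with slide as a random block, 12 as a fixed block, and 0 both on slide 1 alone and with the replicate block, where 2140 and 2164 genes had an unadjusted p under 0.05 in limma. Leaving out 1 array gave 228 to 2022, the lowest without fipronil replicate 3 and the highest without fipronil replicate 8. Of the calls, 303 were higher and 375 lower, against 150 and 435 with median scaling and 5116 and 1660 with normexp and 75th percentile scaling. The median of all genes was -0.18 and 0.17 in these.

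The count of pathway genes was 2 of 62 tested, beside 678 of all 13542 genes. It became 29 with normexp and 75th percentile scaling, beside 6776 of all genes, and 5 with array weights, beside 2219. With no filter it was 24 of the 94 on the array, beside 45.1% of all genes. The count was 1 with median scaling or with the mean of a gene's probes. It was 0 with slide as a random or fixed block, on slide 1 alone and with the replicate block. Leaving out 1 array gave 0 to 4. It was 0 without control replicates 5, 6 or 7 or fipronil replicates 1, 2, 3 or 4. In those fits 8 to 10 of the 62 had an unadjusted p under 0.05 in limma, beside 2744 to 3082 of all 13542 genes. The count past the threshold was 1 without control replicates 3 or 8 and 4 without fipronil replicate 8. The count of genes whose slide 1 difference differed was 1238, and 1952 with median scaling, 6986 with normexp and 75th percentile scaling and 14032 with no filter. Leaving out 1 array gave 15 to 2536, the lowest without fipronil replicate 8 and the highest without fipronil replicate 7. The causes of these changes were not tested. Low signal limits the reading of Rcan3, Ppp3cb and Prkar1b, although Rcan3 and Prkar1b were well above background on all 6 fipronil and all 6 control arrays. Rcan2 and Prkar2a were well above background on 0 arrays.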
